A study of Mus musculus with 22 samples.

Results

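The 10 genes described here encode proteins that carry long-chain fatty acids into the mitochondrion and break them down there: Cpt1a, Slc25a20 and Cpt2, Acadvl, Acadl and Acadm, Hadha, Hadhb and Acaa2, and Etfdh. They were taken by gene symbol from a table of 23420 genes, and all 10 were found in it. All 10 were also among the 14458 genes that passed a filter on low counts and entered the tests. RNA was sequenced from inguinal white adipose tissue (IWAT) of wildtype C57Bl/6 female mice, about 20 weeks old when injected. A total of 5 lean mice had been fed chow and 6 obese mice a high fat diet (HFD) for 16 weeks. Each mouse received E0771 cells, a mouse breast cancer line, with Matrigel in the left pad (tumor-associated IWAT) and PBS with Matrigel in the right pad (control IWAT), and both pads were collected 2 weeks later. This gave 22 libraries in 4 groups: 5 lean control, 5 lean tumor-associated, 6 obese control and 6 obese tumor-associated. Control pads therefore came from tumor-bearing animals, with no tumor-free mice among these libraries, and HFD and obesity cannot be told apart. Tissue was sequenced whole, so fewer cells of a type and less RNA per cell cannot be told apart.

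Long-chain fatty acids enter the mitochondrial matrix as carnitine esters. CPT1, on the outer membrane, makes the ester, the carrier SLC25A20 exchanges it for free carnitine across the inner membrane, and CPT2 turns it back into acyl-CoA. The step at CPT1 is inhibited by malonyl-CoA, the product of acetyl-CoA carboxylase, and limits the flux through the pathway. In the matrix, acyl-CoA dehydrogenases for very long, long and medium chains (ACADVL, ACADL, ACADM) open each cycle, the trifunctional protein (HADHA and HADHB) and the thiolase ACAA2 complete it, and ETFDH hands the electrons from the dehydrogenases to ubiquinone. White adipocytes mainly store fat, while brown and beige adipocytes burn it by this route.

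The subunits of the trifunctional protein lie head to head on chromosome 5 of the mouse genome (GRCm38). Hadha (chr5:30118304-30155162) is read from the minus strand and Hadhb (chr5:30155248-30184593) from the plus strand, and 85 bases separate their annotated starts. That interval is shown because both genes start at its ends, and Acadm, the member with the largest fall in obese mice, is shown with the 250 bases before its RefSeq start. Both sequences are RefSeq sequence of GRCm38.p6, written 5′ to 3′, with matches to the motifs searched in capitals.
Hadha to Hadhb interval, chr5:30155163-30155247, plus strand: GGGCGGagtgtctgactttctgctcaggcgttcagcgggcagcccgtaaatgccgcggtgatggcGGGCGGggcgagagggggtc
Acadm, chr3:153944644-153944893, minus strand: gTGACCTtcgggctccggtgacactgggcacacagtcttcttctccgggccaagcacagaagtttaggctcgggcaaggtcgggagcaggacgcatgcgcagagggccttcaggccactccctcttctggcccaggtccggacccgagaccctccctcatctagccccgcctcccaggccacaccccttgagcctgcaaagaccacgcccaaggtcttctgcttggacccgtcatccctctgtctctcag
The interval holds 2 GC boxes (GGGCGG) and is 69.4% G and C, against a median of 52.4% over 32851 RefSeq promoter windows. The Acadm window holds 1 nuclear receptor core motif, AGGTCA read on the other strand. RefSeq windows were matched for 9 of the 10 genes, and matches on either strand were counted in the 250 bases before the start. GC boxes were in 6 of 9 windows, against 32.7% of all windows. The windows of Hadha (chr5:30154981-30155230) and Hadhb (chr5:30155003-30155252) overlap. The GC box of the Hadha window also lies in the Hadhb window, so that site was counted for both. The AGGTCA core motif was in 3 of 9, those of Acadm, Acadvl and Cpt1a, against 14.0%. CCAAT was in 2 of 9, against 33.8%, and the NRF1 element in the Etfdh window alone, against 0.782%. The Etfdh window lies inside the annotated gene, and an annotated exon covers all 250 of its bases. Annotated exon also covers 182 bases of the Hadha and 160 of the Hadhb window, and 48 or fewer of any other. None of the 9 windows held the DR1 direct repeat bound by PPAR receptors, held by 0.338% of all windows, or the estrogen-related receptor element TCAAGGTCA, held by 0.387%. The E-box CACGTG, in 6.02% of all windows, was in none of them either. The core motif is also contained in the estrogen-related receptor element and in some forms of the direct repeat.

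Counts on genes summed to between 5759775 and 8598108 in a library, and the median library had 6953881.5. Values are given as CPM (a gene's count scaled to the library's total on genes, after TMM normalization), SE is the standard error of a log2 fold change, and tests are edgeR's quasi-likelihood test, with p adjusted over all genes tested by Benjamini-Hochberg and a gene called at an adjusted p under 0.05. The tissue label was checked against 12 adipocyte markers, which summed to between 17080 and 22000 CPM in lean control, 11320 and 17380 in lean tumor-associated, and 18520 and 33970 in obese control libraries. In obese tumor-associated IWAT the sum was 4200 CPM in mouse 0 and 2618 in mouse 4, against 9730 to 15800 in the other 4 mice. The library of obese control mouse 1 held 2541 CPM of 9 skeletal muscle markers, against 20.9 to 45.5 CPM in the other obese control and 5.42 to 14.4 CPM in lean control libraries, and obese tumor-associated mouse 8 held 255 CPM of them. Obese control mice 1 and 3 held 444 and 407 CPM of 6 lymphocyte markers, against 2.86 to 11.9 CPM in the other obese control libraries.

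Tumor-associated IWAT held less RNA of several matrix and carnitine genes than control IWAT in both diets, while the log2 fold change of Cpt1a was above 0 in both. Of the 10 genes, 5 fell in lean mice (Cpt2, Acadvl, Hadha, Hadhb and Etfdh) and none rose, where 4.18% of all genes tested were called, 3.27% higher and 0.913% lower. In obese mice 7 fell (Cpt2, Slc25a20, Acadm, Acadl, Acadvl, Hadhb and Etfdh) and none rose, where 54.5% of all genes tested were called, 26.8% higher and 27.7% lower. The median log2 fold change of the 10 genes was -0.61 in lean and -0.56 in obese mice, against medians over all genes tested of 0.0072 and -0.015. The lean calls depended on the fit and on single libraries. DESeq2 called 6 of the 10 genes lower in lean mice, where it called 291 of 19839 genes lower. The fit of the lean groups alone called 7 of the 10 lower, where it called 591 of 13750 genes lower. With the mouse as a block, since the pads of a mouse are paired, none of the 9 genes other than Cpt1a was called in lean mice. Cpt1a rose instead there (log2 fold change 0.62, edgeR adjusted p = 0.0184, with 0.0184 to 0.436 over the alternatives), whereas 8 of the 10 genes fell in obese mice. Over all 14458 genes tested, the fit with the block called 503 higher and 166 lower in lean mice, and 3690 higher and 3990 lower in obese mice. The adjusted p of the 5 lean calls lay between 0.0518 and 0.0754 in that fit. Without either pad of lean mice 2 or 3, without lean control mouse 6 or without lean tumor-associated mouse 0, none of the 10 genes was called in lean mice. Without lean tumor-associated mouse 9, 2 were called, and without obese control mouse 0, which enters only through the shared estimate of spread, 3.

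**Figure D1:**
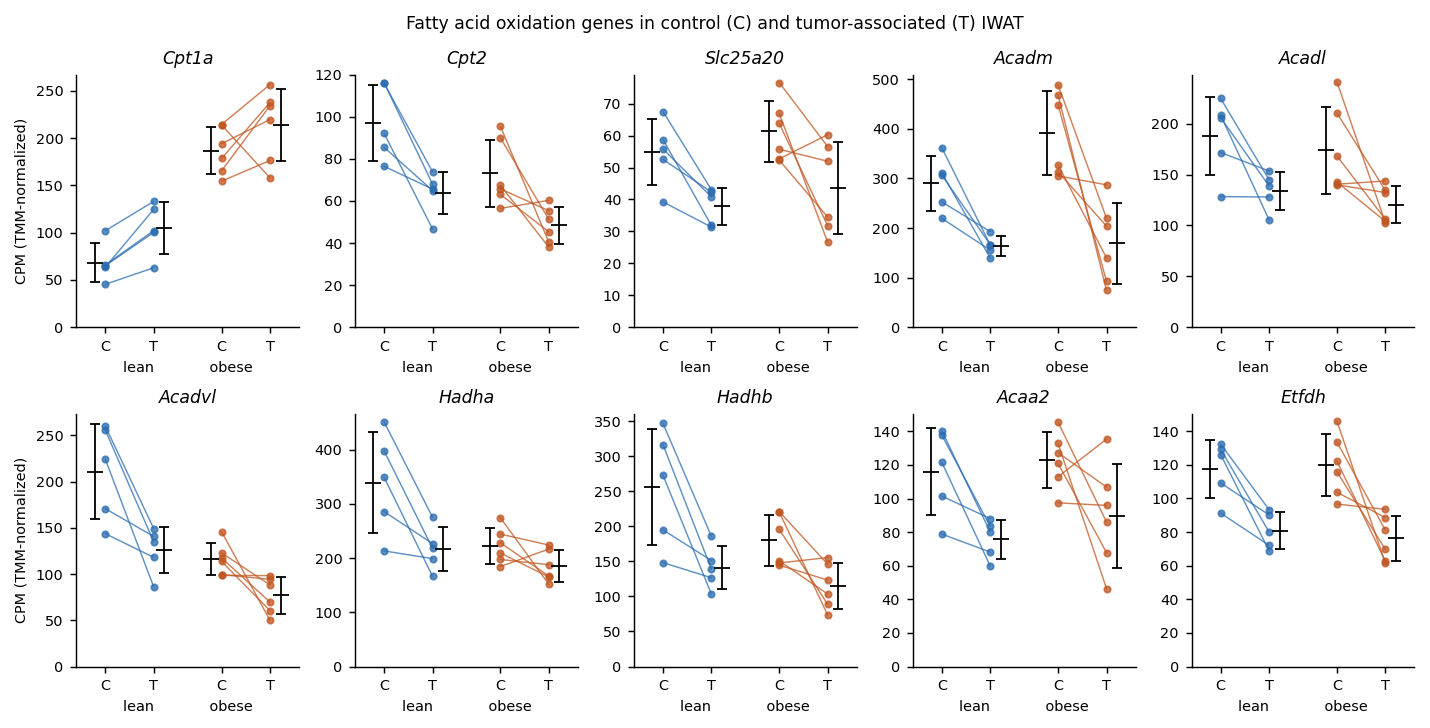
CPM of the 10 genes in each library (vertical axes start at 0). Lines join the control (C) and tumor-associated (T) pad of a mouse, and black bars give the group mean and SD of 5 lean or 6 obese mice. Cpt1a stands higher in every obese than in every lean library, and Acadm shows the widest spread in obese tumor-associated IWAT, from 74.4 to 287 CPM.

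Among the entry genes, Cpt1a (chr19:3322334-3385733, plus strand, GRCm38), the liver-type CPT1, had the pattern furthest from the others. In lean control IWAT it was at 65.8, 63.5, 65.1, 45.4 and 102 CPM in mice 0, 2, 3, 6 and 9. In the tumor-associated pads of the same mice it was at 102, 125, 100.3, 62.9 and 133 CPM. It was higher in the tumor-associated pad of every lean mouse, though the groups overlapped, and the log2 fold change of 0.61 (SE 0.20) did not pass the test without the block (edgeR adjusted p = 0.0913). Obese control libraries ranged from 154 to 214 CPM (median 186) and obese tumor-associated libraries from 158 to 257 CPM (median 227). The obese pads overlapped, and the log2 fold change was 0.20 (SE 0.18, edgeR adjusted p = 0.365). Mouse 4, whose tumor-associated pad had the fewest adipocyte transcripts, was the only one of 11 mice in which Cpt1a was lower in the tumor-associated pad. The muscle-type gene Cpt1b had 1 to 6 counts per library, too few to enter the tests, so nearly all counts of these 2 forms came from Cpt1a.

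Cpt2 (chr4:107903981-107923610, minus strand), on the inner membrane, fell in both diets. In lean mice it was 97.2 ± 18.03 CPM (SD, n = 5) in control and 63.8 ± 10.2 CPM (SD, n = 5) in tumor-associated IWAT, without overlap (log2 fold change -0.61, SE 0.17, edgeR adjusted p = 0.0423). In obese mice it was 73.0 ± 15.8 CPM (SD, n = 6) and 48.4 ± 8.71 CPM (SD, n = 6) (log2 fold change -0.59, SE 0.15, edgeR adjusted p = 0.00305). The carrier gene Slc25a20 (chr9:108662088-108684641, plus strand) fell in obese mice from 61.4 ± 9.57 to 43.6 ± 14.3 CPM (SD, n = 6), with a log2 fold change of -0.49 and an edgeR adjusted p of 0.0279. In lean mice its log2 fold change was -0.53 (edgeR adjusted p = 0.164), although it was lower in 5 of 5 tumor-associated pads. The call of Slc25a20 in obese mice was lost without the control library of mouse 4 or 8, or the tumor-associated library of mouse 0, 2 or 4.

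Because both carnitine palmitoyltransferases were counted in the same library, their ratio does not depend on the normalization. The ratio of Cpt1a to Cpt2 counts had a median of 0.690 (range 0.392 to 1.19) in the control and 1.56 (0.853 to 2.68) in the tumor-associated pads of lean mice. In obese mice the medians were 2.49 (2.24 to 3.16) for control pads and 4.09 (3.89 to 5.78) for tumor-associated pads. Every obese tumor-associated library lay above all other libraries, and the ratios of lean and obese control libraries did not overlap. The ratio was higher in the tumor-associated pad in 5 of 5 lean mice, by 1.72 to 3.88 times, and in 6 of 6 obese mice, by 1.25 to 2.11 times.

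**Figure D2:**
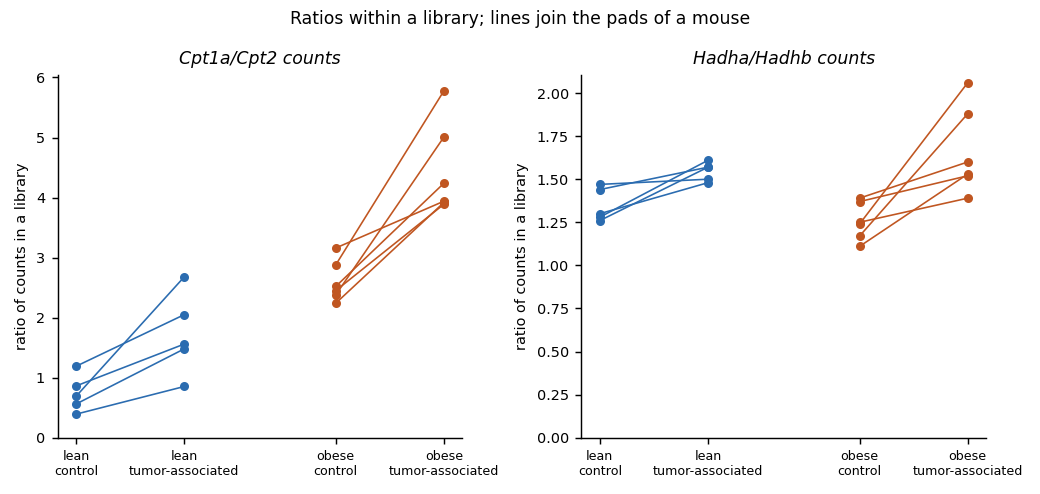
Ratios of raw counts within each library (vertical axes start at 0), Cpt1a over Cpt2 on the left and Hadha over Hadhb on the right, with lines joining the pads of a mouse. Both ratios are higher in the tumor-associated pad in all 5 lean and 6 obese mice.

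The acyl-CoA dehydrogenases differed in size of change. Acadm (chr3:153922357-153944632, minus strand), the medium-chain enzyme, was at 220, 311, 362, 307 and 253 CPM in the control pads of lean mice 0, 2, 3, 6 and 9, and at 155, 139, 166, 167 and 193 CPM in their tumor-associated pads. These groups did not overlap, yet the log2 fold change of -0.82 (SE 0.27) was not called (edgeR adjusted p = 0.0981). In obese mice it ranged from 305 to 489 CPM (median 388) in control and from 74.4 to 287 CPM (median 172) in tumor-associated IWAT. The obese pads did not overlap either, and Acadm fell by 1.21 (log2; SE 0.25, edgeR adjusted p = 0.000563), the largest change of the 10 genes in any tumor comparison. The tumor-associated pads of mice 4 and 0 were lowest, at 74.4 and 92.55 CPM. Without both pads of these 2 mice the log2 fold change was -0.76 and Acadm was still called (edgeR adjusted p = 0.0103).

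Acadvl (chr11:70010183-70015411, minus strand), for very long chains, was lower in tumor-associated IWAT and lower again in obese mice. Lean control pads of mice 0, 2, 3, 6 and 9 held 144, 224, 256, 260 and 171 CPM, and their tumor-associated pads 118, 86.0, 135, 149 and 141 CPM. Its log2 fold change was -0.75 (SE 0.20, edgeR adjusted p = 0.0339), with some overlap between the lean groups. In obese mice it ranged from 98.5 to 146 CPM (median 116) in control and from 49.9 to 98.3 CPM (median 78.9) in tumor-associated IWAT (log2 fold change -0.60, SE 0.18, edgeR adjusted p = 0.00844). The gap between these obese groups was narrow, since mouse 1 held 98.5 CPM in its control and 98.3 CPM in its tumor-associated pad. Acadvl overlaps Dvl2 on the opposite strand, and the strand setting of the counting is not given in the sources used here. Acadl (chr1:66830839-66863277, minus strand), for long chains, overlaps the annotated genes Gm15793 and Gm27934. It fell in obese mice from 174 ± 42.8 to 121 ± 18.2 CPM (SD, n = 6; log2 fold change -0.53, edgeR adjusted p = 0.00759). In lean mice it was 188 ± 38.5 and 134 ± 18.5 CPM (SD, n = 5; log2 fold change -0.48, edgeR adjusted p = 0.128).

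Of the trifunctional protein genes, Hadhb, the subunit with the thiolase, fell in both diets. It was at 148, 273, 316, 347 and 195 CPM in the control pads of lean mice 0, 2, 3, 6 and 9 and at 127, 103, 139, 186 and 151 CPM in their tumor-associated pads. The log2 fold change was -0.86 (SE 0.23, edgeR adjusted p = 0.0401), the largest fall among the lean calls, with overlap because control mouse 0 was low. Obese libraries ranged from 145 to 221 CPM (median 173) in control and from 73.5 to 155 CPM (median 113) in tumor-associated IWAT (log2 fold change -0.65, SE 0.21, edgeR adjusted p = 0.0145). Hadha, which carries the hydratase and hydroxyacyl-CoA dehydrogenase, fell in lean mice from 339 ± 93.2 to 217 ± 40.0 CPM (SD, n = 5; log2 fold change -0.64, edgeR adjusted p = 0.0401). In obese mice Hadha was 223 ± 33.0 and 185 ± 29.6 CPM (SD, n = 6), and this difference did not pass the test (log2 fold change -0.27, edgeR adjusted p = 0.159). The ratio of Hadha to Hadhb counts had medians of 1.30 for control and 1.57 for tumor-associated pads of lean mice, and of 1.25 and 1.56 for those of obese mice. It was higher in the tumor-associated pad of all 11 mice, by 1.02 to 1.26 times in lean and 1.11 to 1.66 times in obese mice, so the 2 subunit genes did not change in proportion. Hadha overlaps Garem2 on the opposite strand.

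The thiolase gene Acaa2 was not called in either diet, at a log2 fold change of -0.61 in lean (edgeR adjusted p = 0.122) and -0.45 in obese mice (edgeR adjusted p = 0.0527; 0.0467 with the mouse as a block). Etfdh (chr3:79603788-79629500, minus strand), the last member of the chain, had the smallest standard errors of the 10 genes. In lean control pads of mice 0, 2, 3, 6 and 9 it was at 91.3, 126, 129, 132 and 109 CPM, and in their tumor-associated pads at 72.1, 68.9, 80.0, 93.3 and 90.2 CPM. Only control mouse 0 and tumor-associated mouse 6 made these groups overlap, and the log2 fold change was -0.54 (SE 0.14, edgeR adjusted p = 0.0334). Obese control libraries ranged from 96.7 to 146 CPM (median 119) and obese tumor-associated libraries from 61.4 to 93.5 CPM (median 75.4), without overlap (log2 fold change -0.65, SE 0.13, edgeR adjusted p = 0.000409). Etfdh overlaps the annotated genes Gm37973 and 4930579G24Rik.

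**Figure D3:**
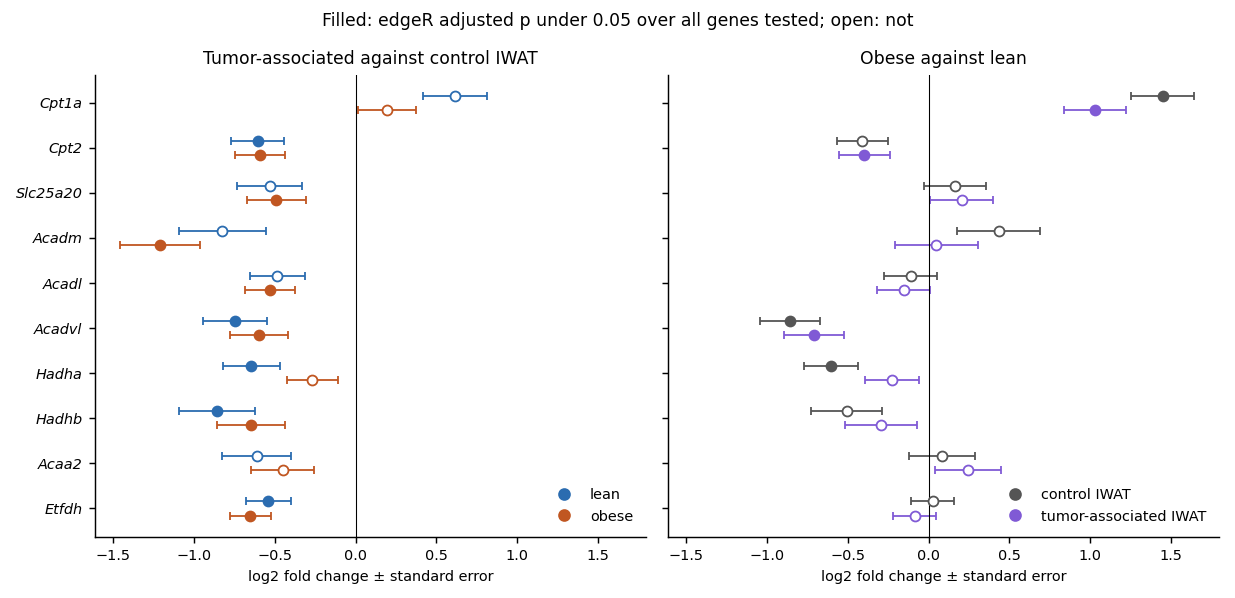
Log2 fold changes of the 10 genes with their standard errors, tumor-associated against control IWAT on the left and obese against lean mice on the right. Filled points passed edgeR's test at an adjusted p under 0.05, and Cpt1a is the only gene to the right of 0 in both tumor comparisons.

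Mouse by mouse, the fall was general but uneven. Without Cpt1a, the other 9 genes were all lower in the tumor-associated pad of every lean mouse, by up to 1.40 on the log2 CPM scale. The smallest lean difference was -0.0037, for Acadl in mouse 0. All 9 were also lower in every obese mouse but mouse 1, by up to 2.65. The mean difference of these 9 genes was -0.24, -1.08, -0.85, -0.69 and -0.30 in lean mice 0, 2, 3, 6 and 9. In obese mice 0, 1, 2, 3, 4 and 8 it was -1.01, 0.083, -0.65, -0.19, -1.46 and -0.58. Obese mouse 1 thus did not share the fall, with 6 of the 9 genes slightly higher in its tumor-associated pad, and mouse 4 showed the largest fall.

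**Figure D4:**
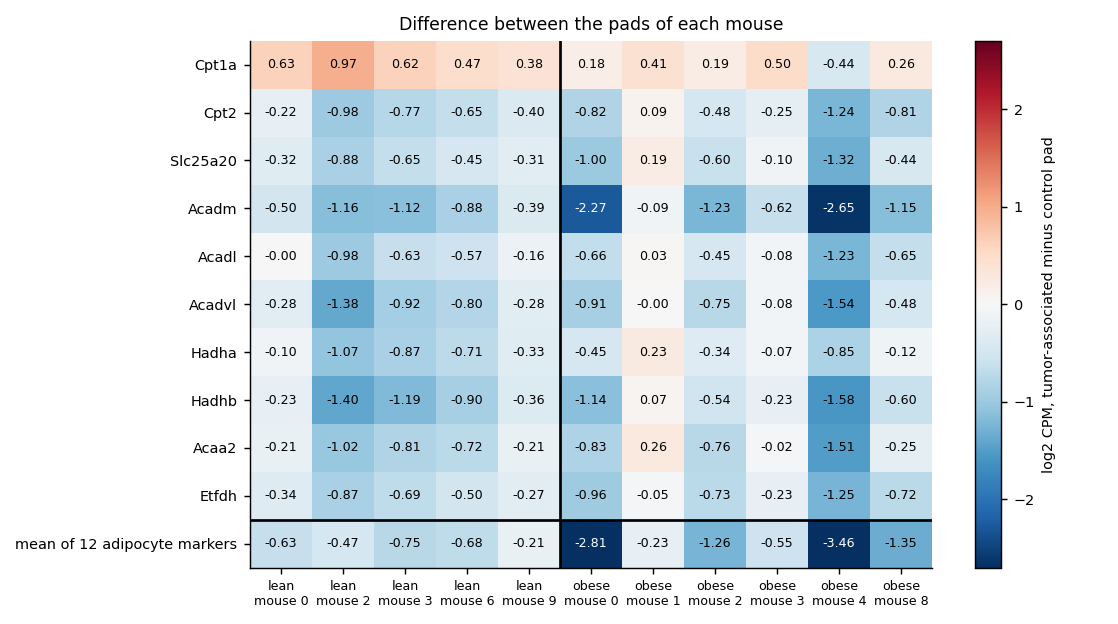
Difference in log2 CPM between the tumor-associated and control pad of each mouse, for the 10 genes and for the mean of 12 adipocyte markers (bottom row). Blue is lower and red higher in the tumor-associated pad. Obese mouse 4 and lean mouse 2 are among the bluest in the rows of the 9 genes other than Cpt1a, obese mice 0 and 4 are bluest in the marker row, and obese mouse 1 is mostly close to 0.

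Adipocyte markers moved in the same pads. Of the 12 markers, 11 fell in obese tumor-associated IWAT, where 27.7% of all genes tested were called lower, with a median log2 fold change of -1.40. None of the 12 markers was called in lean mice, where their median was -0.57. Their mean difference between pads was -2.81 in obese mouse 0 and -3.46 in obese mouse 4, against -0.23 in obese mouse 1, so the mice with the largest fall of the oxidation genes also had the largest fall of adipocyte markers. In lean mice the mean marker difference ranged from -0.75 to -0.21, and lean mouse 2, with the largest fall of the 9 genes, had a marker difference of -0.47. The mean of the 6 tested brown and beige fat markers was also lower in the tumor-associated pad of every lean mouse. Its differences were -0.46, -3.67, -1.60, -0.69 and -1.31 in mice 0, 2, 3, 6 and 9, the lowest in mouse 2. Of the 6 markers, 5 had a log2 fold change below 0 in lean mice and 1 above 0 (0.33), and none was called. The sum of the brown and beige markers in the table had a median of 207.6 CPM in lean control and 45.7 CPM in lean tumor-associated libraries. In obese mice 0, 1, 2, 3, 4 and 8 the mean differences of these 6 markers were -1.85, 0.21, -0.62, -0.27, -2.72 and -0.76. Macrophage markers rose in the same pads, 7 of 11 in lean and 8 of 11 in obese mice, and all 6 proliferation markers rose in obese mice. Of the other markers, 2 of 7 fibroblast markers rose in lean mice and 2 rose and 1 fell in obese mice, none of 4 endothelial and 7 epithelial markers was called in lean mice while 4 and 5 fell in obese mice, and none of 6 lymphocyte markers was called in either. Of 5 tested muscle markers, none was called in lean mice and 3 fell in obese mice. A set of 10 germline and embryonic genes, picked in an earlier analysis of these libraries, had all 10 called higher in obese mice and none in lean mice. Since the set was picked from these same libraries, its calls are no independent result. The sum of the germline and embryonic genes ran from 40.1 to 999.7 CPM in obese tumor-associated IWAT, highest in mouse 4. It ran from 5.99 to 85.7 CPM in obese control IWAT, against 9.09 CPM or less in lean libraries. The part of these cell markers in the changes of the oxidation genes was not tested. Without both pads of obese mice 0 and 4, a choice made after the data were seen, 2 of the 10 genes fell in obese mice, Acadm and Etfdh (log2 fold change -0.44, edgeR adjusted p = 0.0247). Over all genes, 2431 of 14521 tested were called lower in obese mice in that fit. Cpt2, Acadl, Acadvl and Hadhb were then at -0.38, -0.31, -0.33 and -0.34 and were not called. In the same fit 7 of the 10 genes fell in lean mice, where 406 of 14521 genes tested were called lower. The lean libraries were unchanged, but their spread was estimated with fewer others.

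Whether the tumor change differed between diets was tested as the obese minus the lean log2 fold change. None of the 10 genes was called by edgeR, by DESeq2 or at an unadjusted p under 0.05, where edgeR called 4.92% of all genes tested, 2.58% higher and 2.34% lower. Over all genes, 4760 of 14458 had an unadjusted p under 0.05 in edgeR, and DESeq2 called 2364 of 19839. The differences ranged from -0.42 for Cpt1a to 0.38 for Hadha, with standard errors from 0.19 to 0.36, so differences of that order could not be resolved with these numbers of mice.

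Between diets, Cpt1a stood out among the 10 genes. It was higher in obese than in lean control IWAT by 1.45 (log2; SE 0.19, edgeR adjusted p = 5.59e-05), or 2.73 times, and in tumor-associated IWAT by 1.03 (SE 0.19, edgeR adjusted p = 0.000281), or 2.04 times. Neither pair of groups overlapped, and Cpt1a was called in 22 of 22 fits that left out 1 library, in both comparisons. These comparisons use the lean and obese libraries already described, so they share samples with the tumor comparisons. In control IWAT 1 of the 10 genes was higher and 2 lower in obese mice, against 9.54% and 7.53% of all genes tested (17.1% in either direction). The lower genes were Acadvl, with a log2 fold change of -0.86 (SE 0.19, edgeR adjusted p = 0.00348), and Hadha, with -0.61 (SE 0.17, edgeR adjusted p = 0.0162), which was not called without lean control mouse 6. Without the obese control library that held muscle transcripts, all 3 calls remained. In tumor-associated IWAT 1 gene was higher and 2 lower, against 24.7% and 22.4% of all genes tested (47.0% in either direction). The lower genes were Acadvl (log2 fold change -0.71, SE 0.19, edgeR adjusted p = 0.00412) and Cpt2 (-0.40, SE 0.16, edgeR adjusted p = 0.0456). The call of Cpt2 held in 11 of the 22 fits that left out 1 library. Acadm, at 291 ± 55.4 CPM in lean and 392 ± 85.3 CPM in obese control IWAT (SD, n = 5 and 6), had a log2 fold change of 0.43 that was not called (edgeR adjusted p = 0.265), and the remaining genes lay between -0.51 and 0.24.

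Per kilobase of annotated exon, Acadl, Acadvl, Acaa2 and Acadm stood above the other 6 genes in lean control IWAT, beyond the SD. There, Acadl was highest at 93.7 ± 19.2 CPM per kb (SD, n = 5), and its level did not differ beyond the SD from that of Acadvl, nor Acadvl from Acaa2 or Acaa2 from Acadm. Cpt1a was lowest there, at 8.95 ± 2.7 CPM per kb (SD, n = 5), not beyond the SD from Slc25a20. In obese tumor-associated IWAT Cpt1a ranked 5 at 28.0 ± 5.03 CPM per kb (SD, n = 6), not beyond the SD from Acadvl above it, and Slc25a20 was lowest. The order depends on the length used. Per kilobase of the longest transcript, Acadm was highest in all 4 groups, and Cpt1a was still lowest in lean control IWAT. By that length Hadha stood above Acaa2 in lean control IWAT, at 84.5 against 76.5 CPM per kb, so the grouping of the top 4 genes did not hold.

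Over the 22 libraries, 9 of the 10 genes ran together. The Pearson correlation of log2 CPM with the mean of the other genes, Cpt1a left out, was 0.83 to 0.97 for these 9 and -0.35 for Cpt1a. The value for Cpt1a depended on the groups, and within groups it was 0.099. Among lean mice alone it was -0.47 for control pads and -0.48 for tumor-associated pads. Among obese mice it was 0.84 and 0.81 for these pads, so there Cpt1a ran with the other genes. Each group held only 5 or 6 libraries. Libraries share groups, mice and depth, so these correlations describe them and are given without a p. Outside the list, the genes most alike to the mean of the 10 were Arxes2 (r = 0.955), Etfa (0.952), Vwa8 (0.951), Idh3a (0.945) and Plin5 (0.942), out of 11611 genes with at least 10 counts in every library. Each gene was centred and scaled over the libraries before the mean was taken. Etfa encodes a subunit of the electron transfer flavoprotein, which passes electrons to ETFDH, Idh3a a subunit of an enzyme of the citric acid cycle, and Plin5 a lipid droplet protein. The most opposite were Adar (-0.882), Trim21 (-0.881) and Isg20 (-0.873), all known as interferon-induced genes.

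The rest of the mitochondrial pathway mostly showed the same direction. Of 17 other genes of mitochondrial fatty acid oxidation that were tested, 6 fell and none rose in lean tumor-associated IWAT (median log2 fold change -0.52). In lean mice 1 of the 17 had a log2 fold change above 0 (0.27, not called). In obese tumor-associated IWAT 15 fell and none rose (median -0.72). Over all genes tested, 0.913% were called lower in lean and 27.7% in obese mice. Hadh, the short-chain hydroxyacyl-CoA dehydrogenase, fell by 0.73 in lean (SE 0.19, edgeR adjusted p = 0.0334) and by 0.97 in obese mice (SE 0.17, edgeR adjusted p = 0.000185). Echs1, the short-chain enoyl-CoA hydratase, fell by 0.65 and 0.76 and was also lower in obese than in lean mice, by 0.88 in control and 1.00 in tumor-associated IWAT (log2). Acads, the short-chain dehydrogenase, fell by 0.62 and 0.72, and Etfb, a subunit of the electron transfer flavoprotein, by 0.56 and 0.44. Decr1, which handles unsaturated chains, fell by 1.04 in obese mice, and its log2 fold change in lean mice was -0.62 (edgeR adjusted p = 0.246). Without both pads of obese mice 0 and 4, Hadh, Echs1, Acads and Decr1 were still called lower in obese tumor-associated IWAT, and Etfb was not (log2 fold change -0.26, edgeR adjusted p = 0.23).

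**Figure D5:**
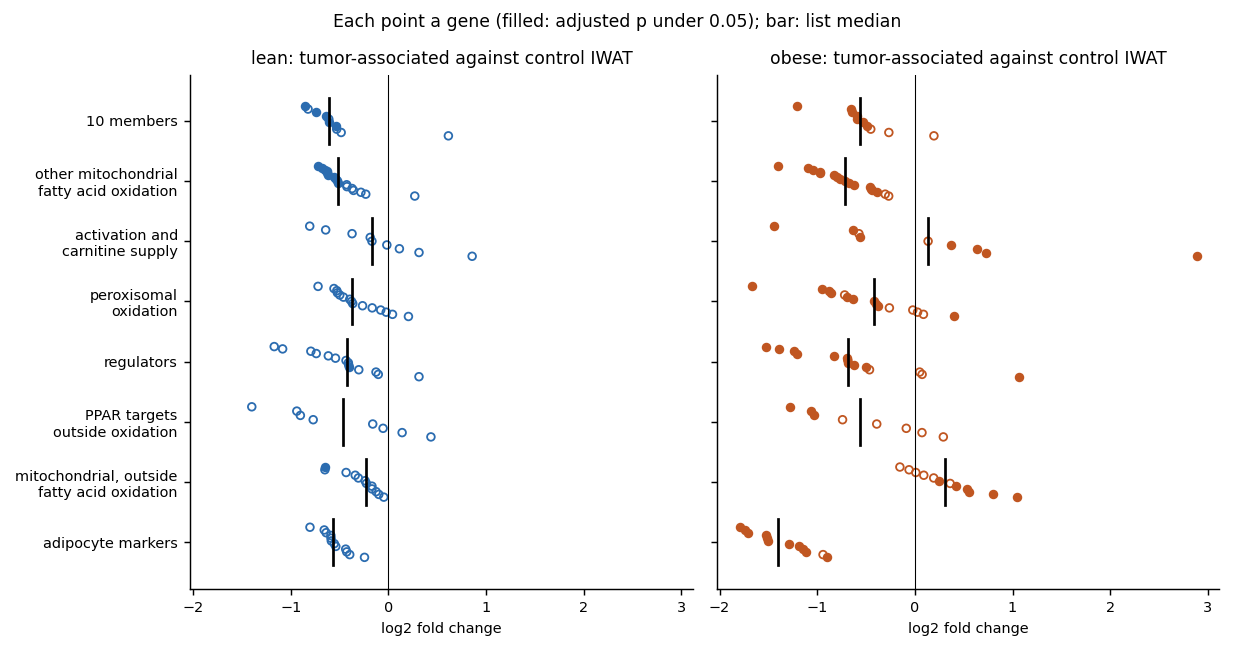
Log2 fold change of each gene of 8 lists, tumor-associated against control IWAT, in lean (left) and obese mice (right). Filled points passed edgeR's test, black bars are list medians, and rows hold the tested genes of a list. In obese mice adipocyte markers and other mitochondrial oxidation genes lie left of 0, peroxisomal genes mostly so, and mitochondrial genes outside fatty acid oxidation lie mostly right of it (median 0.31).

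A list of 12 other mitochondrial genes mostly went the other way in obese mice, but not in lean mice. Of these nuclear genes, for functions such as protein import, outer membrane channels, chaperones and DNA maintenance, 6 rose and none fell in obese tumor-associated IWAT (median 0.31). Over all genes tested, 26.8% were called higher there. In lean mice 1 fell, the citrate synthase gene Cs (log2 fold change -0.65, edgeR adjusted p = 0.0381), and none rose (median -0.23, with a mean difference below 0 in 5 of 5 mice). Without obese mice 0 and 4, Hspd1 and Tomm40 were still called higher (edgeR adjusted p = 0.0461 and 0.0454). Hspd1, a matrix chaperone, rose from 192 ± 21.0 to 397 ± 226 CPM in obese mice (SD, n = 6; log2 fold change 1.05, edgeR adjusted p = 0.00146), and Tomm40, the import channel, from 27.3 ± 2.82 to 47.7 ± 18.8 CPM (SD, n = 6; log2 fold change 0.80, edgeR adjusted p = 0.00124). Among obese tumor-associated pads, the sum of the 12 genes was highest in mouse 4, at 2306 CPM, and lowest in mouse 1, at 1067 CPM. Idh3a, a mitochondrial gene outside this list, was instead lower in 6 of 6 obese mice, at 211 ± 45.2 and 109 ± 24.9 CPM (SD, n = 6). Without obese mice 0 and 4 it was called lower (log2 fold change -0.67, edgeR adjusted p = 0.0193).

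Of 15 peroxisomal oxidation genes, none was called in lean mice, and in obese tumor-associated IWAT 9 fell and 1 rose. Over all genes tested, 27.7% were called lower and 26.8% higher in obese tumor-associated IWAT. Abcd2, a peroxisomal importer of very long chains, fell by 1.66 (log2, edgeR adjusted p = 0.000158) and Ehhadh, an enzyme of the peroxisomal cycle, by 0.95 (edgeR adjusted p = 0.00907). Of 9 genes of fatty acid activation and carnitine supply, none was called in lean mice, and 4 rose and 3 fell in obese tumor-associated IWAT. Acsl1, the main acyl-CoA synthetase of adipocytes, fell from 1939 ± 616 to 712 ± 409 CPM (SD, n = 6; log2 fold change -1.44, edgeR adjusted p = 0.00129). Slc22a5, the plasma membrane carnitine transporter, fell by 0.56, and Crat, carnitine acetyltransferase, by 0.64. Crat was not called without both pads of obese mice 0 and 4 (log2 fold change -0.34, edgeR adjusted p = 0.206). Acsl5 rose by 0.63, Acsl6 by 2.88 from a low level (1.76 ± 1.46 to 13.2 ± 10.4 CPM, SD, n = 6), and Aldh9a1, an enzyme of carnitine synthesis, by 0.73.

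Among 14 regulators, 9 fell and 1 rose in obese tumor-associated IWAT, where 27.7% of all genes tested were called lower and 26.8% higher. Esrra (log2 fold change -0.40, edgeR adjusted p = 0.045) was the only regulator called in lean mice. Ppargc1a, a coactivator of mitochondrial genes, fell by 1.52 in obese tumor-associated IWAT (edgeR adjusted p = 0.00281) and was lower in obese than in lean mice by 1.73 in control and 2.16 in tumor-associated IWAT (log2). Pparg, the adipocyte nuclear receptor, fell by 1.24 in obese mice, and Ppard rose by 1.07. Ppara, at 10.9 to 20.9 CPM in the group means, was called in none of the 5 comparisons. Acacb, whose product makes the malonyl-CoA that inhibits CPT1, was 461 ± 228 CPM in lean control (SD, n = 5) and 57.9 ± 13.4 CPM in obese control IWAT (SD, n = 6). That is a log2 fold change of -3.00 (SE 0.43, edgeR adjusted p = 0.000108), and -3.03 between the tumor-associated groups (edgeR adjusted p = 3.28e-05), the opposite direction to Cpt1a in the same comparisons. Of 8 PPAR target genes outside oxidation, 3 fell in obese tumor-associated IWAT, against the 27.7% of all genes tested called lower there. These were Acot1 by 1.28, Plin5 by 1.06 and Ucp3 by 1.04, and none of the 8 was called in lean mice. Without both pads of obese mice 0 and 4 all 3 calls were lost, at log2 fold changes of -0.64, -0.44 and -0.75 (edgeR adjusted p = 0.259, 0.349 and 0.131). Between diets, Ucp3 was lower by 1.76 in obese control IWAT, and 5 of 6 tested brown and beige fat markers were lower there, with a median log2 fold change of -2.54. With the tumor, none of these 6 was called in lean mice, although their mean was lower in all 5 as given above, and 1 fell in obese mice.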

How the data were processed

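RNA from the left (tumor-associated) and right (control) inguinal pad of 5 lean and 6 obese mice was depleted of ribosomal RNA and sequenced as 22 libraries. The authors aligned reads to mm10 with STAR 2.4.0f and counted them per gene with HTSeq. The deposited values are raw counts per gene, not normalized. The annotation and strand setting are not given in the sources used here. The 5 lines of the table that name no gene, 57.0 to 65.9% of all counts, were left out. Groups and mouse numbers came from the sample titles.

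Counts were tested with edgeR 4.0.16 in R 4.3.3 (TMM normalization, filterByExpr, quasi-likelihood F test, no block), with all 4 groups in 1 fit, Benjamini-Hochberg adjustment over 14458 genes and a threshold of 0.05. The script was tested on simulated data. Log2 CPM used a prior count of 2. Alternatives were DESeq2 size factors, upper quartile scaling, DESeq2 1.42.0, no filter, at least 10 counts in every library, fits restricted to the compared groups, a block for the mouse, and omission of each library or mouse. Pads of a number come from the same mouse, and their deviations from the group means had a median correlation of 0.51 in lean and 0.17 in obese mice. Chi-square per degree of freedom was at least 5.95 over 50 pairs of libraries, so none agreed within sampling noise. The members and lists were chosen with earlier results of these data known. Genes outside the list were named by a fixed rule: the 3 largest called changes of a list in each direction, a few set genes of the pathway, and the genes most alike or opposite in profile. Others named with their values were chosen after these were seen. Separate mice are the replicates. Positions are from GENCODE for GRCm38. Results of some genes of the lists are not reported here.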

Additional observations from a re-analysis of the deposited data

Results flagged for a closer look

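In obese mouse 4 the difference in Cpt1a between the pads was -0.4364 on the log2 CPM scale, far from the nearest of the other 5 obese mice at 0.1791. The gap was 0.656 of the whole range. It was the only sample to stand out so in 60 groups, of CPM values or of differences between pads. Chance alone would mark about 1 in 20 groups, so 1 in 60 is no more than chance would give. That tumor-associated pad had the lowest sum of adipocyte markers.

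The change with the tumor differed between obese and lean mice for 4 named genes by edgeR's interaction test, with the obese minus the lean log2 fold change given here. It was 0.92 for Aldh9a1 (standard error 0.16, edgeR adjusted p = 0.031), with -0.19 in lean and 0.73 in obese mice. It was 1.36 for Hspd1 (edgeR adjusted p = 0.0463), 1.03 for Tomm40 (edgeR adjusted p = 0.0463) and 0.99 for Mrpl12 (edgeR adjusted p = 0.0494). All 4 were lower in the tumor-associated pad in 5 of 5 lean mice and higher in 6 of 6 obese mice. Without both pads of obese mice 0 and 4, 5 genes in all were called in this comparison, against 711 with them.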

How the results depend on the processing

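Every fold change of the 10 genes that was called kept its direction in all alternatives. The number of the 10 genes called ranged over fits without 1 library or mouse from 0 to 7 in lean mice, 5 to 8 in obese mice, 2 to 4 between control and 2 to 3 between tumor-associated groups, and was 0 for the difference between diets. Over all genes these fits called 119 to 952, 6341 to 8403, 1590 to 3428, 5787 to 7522 and 0 to 3568 genes. In lean mice DESeq2 called 913 genes and 6 of the 10, and the fit of the lean groups alone 1437 genes and 7 of the 10. The fit without obese mice 0 and 4 called 1102 genes and 7 of the 10. Of the 10 genes 2 were called in lean mice with no filter and 1 with the mouse as a replicate block. In obese mice 4680 genes and 2 of the 10 were called without mice 0 and 4. The difference between diets gave 2364 genes by DESeq2, 18 with no filter and 5 without obese mice 0 and 4. The cause was not tested. Some uncalled values crossed 0. With upper quartile scaling these were Esrra (-0.012) and Cs (-0.059) in obese mice, Etfdh between control groups (-0.041), Acadm between tumor-associated groups (-0.027) and the difference between diets of Cpt2 (-0.0057). With at least 10 counts in every library they were Cs (-0.033) and Cpt2 (-0.0031), and with the block Slc25a20 (-0.017). Without obese mice 0 and 4 they were Cs (-0.073), Etfdh between control (-0.082) and tumor-associated groups (0.036), and the difference between diets of Acadm (0.085), Acadl (0.20) and Etfdh (0.12). Leaving out 1 library or mouse also moved uncalled values across 0: in lean mice Acot1 ranged from -0.042 to 0.324, in obese mice Esrra from -0.019 to 0.080 and Cs from -0.127 to 0.101, between control groups Acaa2 from -0.029 to 0.161 and Etfdh from -0.054 to 0.081, and between tumor-associated groups Acadm from -0.169 to 0.196. For the difference between diets Cpt2 ranged from -0.123 to 0.154, Slc25a20 from -0.117 to 0.175, Acadl from -0.159 to 0.116, Acaa2 from -0.020 to 0.317 and Etfdh from -0.235 to 0.0081. Upper quartile scaling moved the split of lean calls from 473 higher and 132 lower to 382 and 199, that between control groups from 1380 and 1088 to 1068 and 1446, and that between tumor-associated groups from 3569 and 3233 to 2923 and 3943.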
